A study of Mus musculus with 13 samples.

Results

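The major histocompatibility complex (MHC) genes of the mouse and the genes that supply their peptides were read on 13 arrays of colorectal tissue. They comprise every gene whose name on the array begins with H2-, together with B2m, Tap1, Tap2, Tapbp, Psmb8, Psmb9, Psmb10, Nlrc5, Cd74, Ciita and Cd1d1. The rule took 52 genes with 67 probes, out of 36163 gene names on the array. A gene was kept where 2 or more arrays read a probe well above background, and 44 of the 52 genes passed. They were 23 class I heavy chain genes (H2-K1 and H2-D1, the classical pair, and 21 non-classical or class I-like genes including Cd1d1), 8 genes of the class I pathway, 11 class II genes and 2 genes named for the region that present no antigen. The 8 that did not pass were H2-M1, H2-M5, H2-M10.1, H2-M10.2, H2-M10.3, H2-M10.4 and H2-M10.6 of class I, and the class II gene listed as H2-Ea-ps, whose probe was well above background on 0 arrays.

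Class I molecules stand on most nucleated cells and show CD8 T cells short peptides made in the cytosol by the proteasome, carried into the endoplasmic reticulum by the Tap1-Tap2 transporter and held at the membrane with beta-2 microglobulin. Class II molecules stand mainly on dendritic cells, macrophages and B cells and show CD4 T cells peptides from the endosome, where the invariant chain Cd74 guards the groove and H2-DM exchanges the peptide. In the mouse gut the epithelium itself also carries class I, some class II and several non-classical class I molecules.

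All mice were CDX2P-NLS Cre;Apc+/loxP animals, in which a Cre recombinase under a human CDX2 promoter can delete 1 allele of the tumor suppressor Apc in intestinal epithelium, so the control arrays carry the same alleles and the deletion is limited to cells where that promoter is active. The groups were tumors of mice given microRNAs (2 arrays), normal colorectal tissue of mice given microRNAs (2 arrays), tumors of control mice (7 arrays) and normal colorectal tissue of control mice (2 arrays). Per the labels, treated mice received both arms of miR-369 (-5p and -3p), miR-200c, and the -a, -b, -c and -d forms of miR-302, 25 µg of each, in carbonate apatite particles through the tail vein, and control mice a matching amount of a negative control microRNA, in 24 injections at 3 a week from 8 weeks of age. The labels do not tie samples to animals, so arrays may share one, and p-values measure only the spread between these samples. The array files carry a number that the labels do not explain. It is shared by tumor 1 and normal 1 and by tumor 2 and normal 2 of microRNA mice, by control tumor 3 and control normal 2, by control tumors 1 and 2, and by control tumors 4 to 7. If it marks the animal, the arrays are not independent. P-values over arrays could then be too small or, where tumor and normal arrays share an animal, too large.

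Tumor arrays had a 75th percentile of signal between 415 and 740 and normal arrays one between 214 and 320. Each array was scaled to it, so that a level below is a log2 distance from that percentile. Slide 1 held 6 control tumors, 1 microRNA tumor and 1 microRNA normal array. Slide 2 held 1 control tumor, 1 microRNA tumor, 1 microRNA normal and both control normal arrays. Control normal 2 and control tumor 3 were the 2 arrays with Xist signal (0.45 and 1.97 against -7.19 to -5.80 on the other 11). The mean level over 7 skin markers was -2.60 and -2.99 in microRNA normal tissue against 2.06 and 0.37 in control normal tissue. All 9 epithelial markers, Cdx2 and Krt20 among them, were well above background on all 13 arrays.

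The promoters of the genes that the comparison of the classes turns on are shown first, because the classes are known for different control elements: an X box and Y box pair that defines class II promoters and also occurs in class I, and in classical class I a kappa B element beside an interferon response element. In the class II stretches capitals mark matches to GNNACNGAT (X box) and ATTGG (Y box), and in the class I stretches to GGGATTCCC (kappa B) and GAANNGAAA (interferon response), on either strand. The marked matches do not overlap. The sequences are from RefSeq on GRCm38.p6, 5′ to 3′ on the gene's strand, and all end before the start of the transcript.
H2-Eb1, chr17:34305747-34305836, plus strand: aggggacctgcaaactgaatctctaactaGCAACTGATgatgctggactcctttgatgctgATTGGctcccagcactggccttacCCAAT
H2-DMb1, chr17:34153071-34153160, plus strand: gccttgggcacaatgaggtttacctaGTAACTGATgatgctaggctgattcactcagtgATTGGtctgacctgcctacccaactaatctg
H2-DMb2, chr17:34145099-34145188, plus strand: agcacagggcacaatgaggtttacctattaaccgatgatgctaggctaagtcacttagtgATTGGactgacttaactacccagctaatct
H2-Ob, chr17:34238785-34238874, plus strand: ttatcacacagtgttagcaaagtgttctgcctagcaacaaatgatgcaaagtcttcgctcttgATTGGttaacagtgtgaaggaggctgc
H2-Aa, chr17:34287854-34287943, minus strand: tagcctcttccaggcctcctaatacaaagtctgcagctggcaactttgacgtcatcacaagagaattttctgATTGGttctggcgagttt
H2-K1, chr17:34000408-34000487, minus strand: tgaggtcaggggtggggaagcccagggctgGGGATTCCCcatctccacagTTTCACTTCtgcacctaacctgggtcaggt
H2-D1, chr17:35262908-35262987, plus strand: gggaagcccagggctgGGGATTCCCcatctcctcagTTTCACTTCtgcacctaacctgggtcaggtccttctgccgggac
H2-T3, chr17:36190258-36190337, minus strand: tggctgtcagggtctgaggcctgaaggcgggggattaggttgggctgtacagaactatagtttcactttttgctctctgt

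Of 8 class II genes with a promoter of 300 bases in the table, all 8 held the Y box and 5 the X box, and 0 held the interferon response or kappa B motif. The X box matches of H2-Eb1, H2-Eb2, H2-DMb1 and H2-Oa lay before the start of the transcript, on the gene's strand. That of H2-Ob lay outside the stretch shown, after the start of the transcript and on the opposite strand. Of 20 class I heavy chain genes with a promoter, whether or not they passed on the arrays, 8 held the interferon response motif, 4 the kappa B motif (H2-K1, H2-D1, H2-Q6 and H2-Q7), 17 the Y box and 12 the X box. With an A before and a G after it, the X box was held by 4 of the 8 class II genes and 3 of the 20 class I heavy chain genes. Of the 13 class I heavy chain genes here that passed on the arrays, 8 held the X box and 0 this longer form. The count in class I thus depends on the letters required. Among all 32851 promoters in the table, 37.4% held the Y box, 7.82% the X box (0.968% with both added bases), 7.52% the interferon response motif and 0.353% the kappa B motif. H2-DMb1 and its neighbour H2-DMb2, which lie beside each other and encode alternative beta chains of H2-DM, are shown together; only H2-DMb1 has the X box match. The promoter of H2-T3 held none of the 4 motifs. A missing match says only that these letters are not in the window.

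The first question was which of these genes differed between tumors and normal tissue. In the additive model, which takes both groups of mice with treatment as a term, 36 of the 44 genes were lower in tumors, 1 was higher and 7 were not called, against 31.4% of all 25395 genes called in either direction, 19.7% lower and 11.7% higher. Both classes took part: 19 of 23 class I heavy chain genes, 7 of 8 class I pathway genes and 9 of 11 class II genes fell. The median log2 difference was -1.08 for class I heavy chains, -1.14 for the class I pathway and -1.45 for class II, beside -0.11 for all genes tested. Without scaling between arrays, the all-gene median stood at 0.89 and 10 of the 36 genes that fell turned to above 0. Relative to the all-gene median, the class medians were -0.97, -1.03 and -1.34, but -0.61, -0.70 and -0.89 after normexp background correction and -0.62, -0.80 and -1.08 without the filter on dim probes. The plot of all 44 differences shows the classes side by side.

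**Figure D1:**
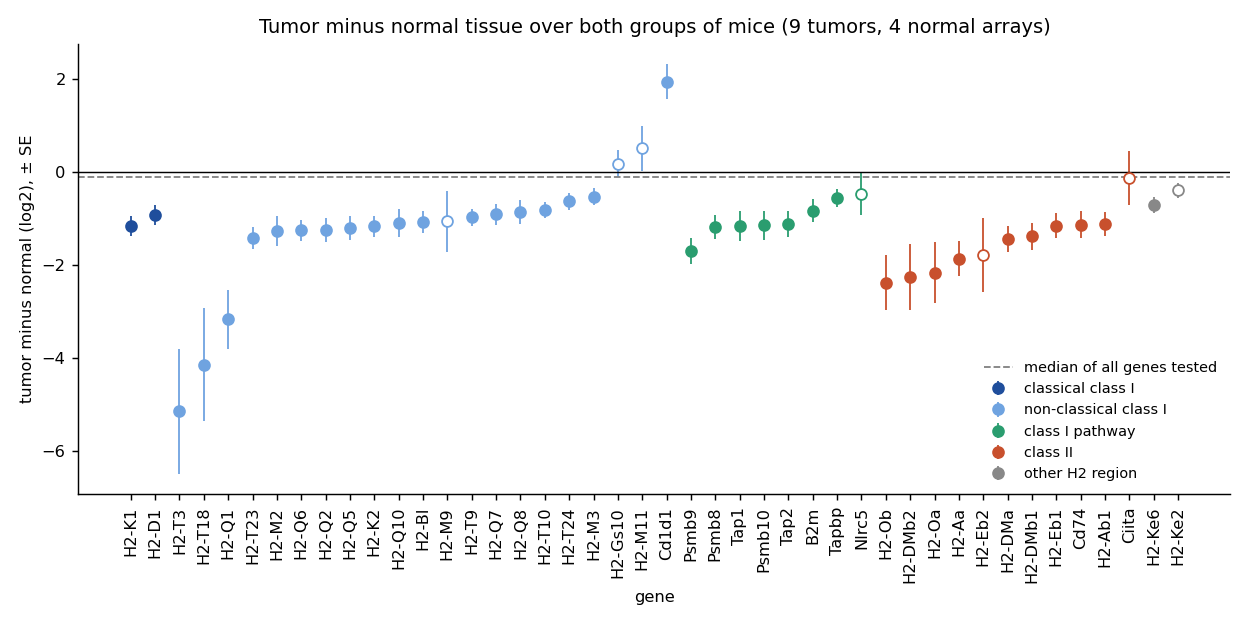
Log2 difference of tumor minus normal tissue (vertical axis, ± SE) for the 44 genes in the additive model, ordered within each class; filled points passed the test, open points did not, and the dashed line is the median of all genes tested (-0.11). H2-T3, H2-T18 and H2-Q1 stand lowest, Cd1d1 alone is higher in tumors among the genes that passed, and the other genes that passed lie between -2.39 and -0.54.

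The arrays of tumors and of normal tissue did not overlap, with every tumor below every normal array, for 10 of 23 class I heavy chains, 1 of 8 pathway genes and 5 of 11 class II genes, against 10.5% of all genes. Cd1d1 was the 1 member with every tumor above every normal array, against 6.9% of all genes. With the slide as a block, 34 of the 37 called genes were still called in the same direction, and within slide 2 alone 22 were. Within slide 1 alone 0 were, a fit that rests on 1 normal array. Without control normal 2, 13 class I heavy chains, 4 pathway genes and 6 class II genes were lower. Without control normal 1 these counts were 15, 7 and 6, and without microRNA normal 1 the pathway count was 4.

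The classical class I chains fell over both groups of mice combined, and within each group H2-K1 passed and H2-D1 did not. H2-K1, which presents cytosolic peptides to CD8 T cells, had a level of 5.79 and 6.24 in microRNA tumors, against 7.75 and 7.56 in microRNA normal tissue. In control tumors it ran from 5.45 over a median of 5.73 to 6.25, against 6.53 and 6.81 in control normal tissue. No tumor reached the lowest normal array, and the log2 difference over both groups was -1.17 (SE 0.22, limma adjusted p = 0.0032). The probe lies at chr17:34133055-34133114 on mm9, and a second probe of the gene gave -1.62 where the first gave -1.31, without adjustment for treatment.

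H2-D1, the other classical chain, had 5.09 and 5.28 in microRNA tumors against 6.40 and 6.43 in microRNA normal tissue, and 4.53, 4.93 and 5.48 (lowest, median and highest) in control tumors against 5.54 and 5.95 in control normal tissue. Here too every tumor lay below every normal array (log2 -0.93, SE 0.22, adjusted p = 0.0091), although the value without scaling between arrays was 0.07. B2m, the light chain shared by class I heavy chains, had 5.32 and 5.83 in microRNA tumors against 6.96 and 6.61 in microRNA normal tissue, and 4.74, 5.35 and 5.87 in control tumors against 5.54 and 6.22 in control normal tissue. Its arrays overlapped in control mice, and the log2 difference over both groups was -0.84 (SE 0.25, adjusted p = 0.023), or 0.15 without scaling.

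The immunoproteasome subunits, which replace the standard catalytic subunits and favour peptides that fit class I, fell together. Psmb9 had 1.62 and 1.39 in microRNA tumors against 3.95 and 3.37 in microRNA normal tissue, and 0.77, 1.35 and 2.10 in control tumors against 2.49 and 3.01 in control normal tissue. It was the only pathway gene with no overlap, and its log2 difference of -1.71 (SE 0.27, adjusted p = 0.0016) was the largest of the pathway. Psmb8 and Psmb10, the other immunoproteasome subunits, fell by 1.19 and 1.16. The transporter subunits Tap1 and Tap2 fell by 1.16 and 1.13, and Tapbp, which encodes tapasin and bridges the transporter to empty class I, fell by 0.57, or turned to 0.42 without scaling. Nlrc5, the transactivator of class I genes, differed by -0.49 (adjusted p = 0.43), with 2 probes of the same sign. Its direction differed between the groups of mice: the mean level was -1.49 in microRNA tumors against 0.03 in microRNA normal tissue. In control tumors it was -0.98 against -1.16 in control normal tissue.

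**Figure D2:**
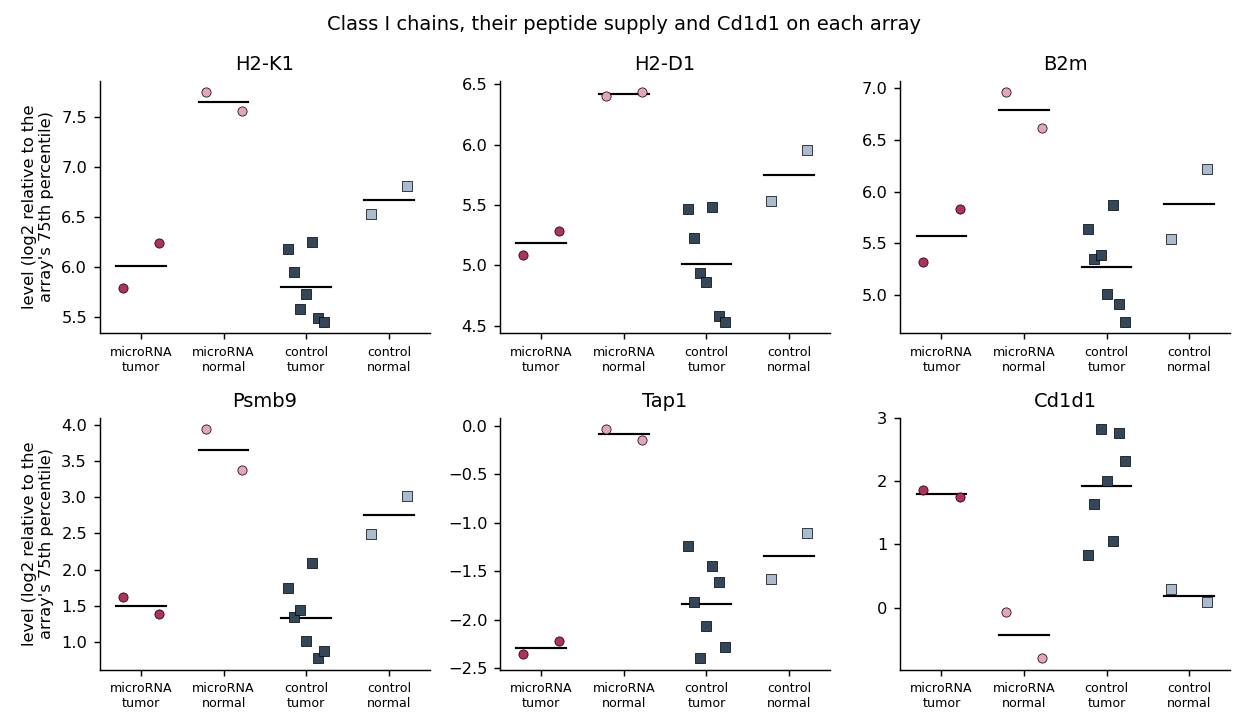
Level of H2-K1, H2-D1, B2m, Psmb9, Tap1 and Cd1d1 (log2 relative to the array's 75th percentile) on each array, by group; points are arrays and lines are group means. Psmb9 lies between 0.77 and 2.10 in all tumors and between 2.49 and 3.95 in normal tissue, whereas Cd1d1 lies between 0.83 and 2.82 in tumors and between -0.80 and 0.29 in normal tissue.

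Tap1 differed most between the groups of mice among the pathway genes. It had -2.36 and -2.22 in microRNA tumors against -0.03 and -0.14 in microRNA normal tissue, and -2.40, -1.82 and -1.24 in control tumors against -1.58 and -1.10 in control normal tissue. Of the control normal arrays, 1 lay inside the range of control tumors and 1 just above it. The tumor difference was -2.20 in microRNA mice (SE 0.38, adjusted p = 0.012) and -0.49 in control mice (SE 0.30, adjusted p = 0.25), and the difference between the 2 was not called (-1.71, adjusted p = 0.42).

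Cd1d1, an MHC-like gene outside the complex that presents lipids to natural killer T cells, went the other way. It had 1.87 and 1.74 in microRNA tumors against -0.06 and -0.80 in microRNA normal tissue, and 0.83, 2.00 and 2.82 in control tumors against 0.29 and 0.09 in control normal tissue. Every tumor lay above every normal array (log2 1.93, SE 0.38, adjusted p = 0.0038), and both of its probes, on chromosome 3, gave the same sign (2.02 and 1.79 without adjustment for treatment). With the slide as a block the difference was 2.29, and within slide 2 it was 2.33.

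H2-T23, which encodes Qa-1, the ligand of the natural killer cell receptor CD94-NKG2A, showed the pattern of the classical chains with a log2 difference of -1.42 (SE 0.24, adjusted p = 0.0019). Its level was 4.93 and 5.05 in microRNA tumors against 6.82 and 6.60 in microRNA normal tissue, and 4.25, 4.95 and 5.37 in control tumors against 5.81 and 6.29 in control normal tissue. H2-M3, which presents formylated bacterial peptides, fell by 0.54 (adjusted p = 0.037), but stood at 0.46 without scaling. Of the Q and K region genes other than H2-Q1 and H2-Gs10, H2-Q2 fell by 1.25, H2-Q5 by 1.21, H2-Q6 by 1.26, H2-Q7 by 0.92, H2-Q8 by 0.86, H2-Q10 by 1.10 and H2-K2 by 1.18, of which H2-Q7 and H2-Q8 turned to above 0 without scaling. H2-T9, H2-T10, H2-T24, H2-Bl and H2-M2 fell by 0.98, 0.82, 0.64, 1.08 and 1.28, of which H2-T9, H2-T10 and H2-T24 turned to above 0 without scaling. These genes are close copies, and their probes can share target: the H2-K2 and H2-Q7 probes used here have an identical run of 19 bases, and the H2-Q7 probe is listed for both H2-Q7 and H2-Q9. Similar differences among these genes therefore cannot be taken as separate measurements. In RefSeq, H2-K2, H2-Q5, H2-T10 and H2-Bl are transcribed pseudogenes. The H2-T9 probe is listed there under H2-T22, and no gene named H2-T9 was matched.

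H2-Gs10, M11 and M9 of class I were not called. H2-Gs10, whose accession RefSeq names H2-Q4, was at 5.14 and 6.23 in microRNA tumors against 6.12 and 5.84 in microRNA normal tissue, and at 5.11, 6.24 and 6.47 in control tumors against 5.79 and 5.35 in control normal tissue (log2 0.17, adjusted p = 0.67). H2-M11 differed by 0.50 (adjusted p = 0.44) and H2-M9, well above background on 3 arrays only, by -1.07 (adjusted p = 0.22).

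The largest differences of class I were those of H2-T3 and H2-T18, names of the thymus leukemia (TL) antigen, a non-classical molecule of mouse intestinal epithelium that binds CD8 alpha homodimers and presents no peptide, and of H2-Q1. H2-T3 had -5.25 and -6.09 in microRNA tumors against 1.36 and 0.98 in microRNA normal tissue. Among control tumors it was 0.31 in tumor 1, -0.14 in tumor 5 and between -7.00 and -5.16 in the other 5, against -0.87 and 0.84 in control normal tissue. The signal was well above background on all 4 normal arrays and on these 2 tumors, and on no other array.

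H2-T18, whose probe has no mm9 position in the files, split the arrays in the same way. It had -7.20 and -6.80 in microRNA tumors against -0.82 and -0.32 in microRNA normal tissue. Control tumors 1 and 5 had -1.48 and -2.10 and the other 5 control tumors -7.00 to -6.64, against -3.78 and -1.61 in control normal tissue. The used probes of H2-T3 and H2-T18 share no identical run of 15 or more bases. That does not make them separate measurements, since probes at different places of the same transcript would share none either. H2-T3 was at least 64.6-fold lower in microRNA tumors than in microRNA normal tissue and H2-T18 at least 19.3-fold lower, neither of which passed in microRNA mice alone (adjusted p = 0.099 and 0.08). Over both groups the log2 differences were -5.15 (SE 1.34, adjusted p = 0.014) and -4.15 (SE 1.22, adjusted p = 0.022), whose sizes are not exact because 7 of the 9 tumors were not well above background. Without the 2 arrays with Xist signal these were -5.09 and -4.08 and no longer passed (adjusted p = 0.063 and 0.086).

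H2-Q1 was measured above background on all 13 arrays and was also highest, among tumors, in control tumors 1 and 5. It had -1.62 and -1.38 in microRNA tumors against 2.82 and 2.66 in microRNA normal tissue. It was 0.88 in control tumor 1, -0.38 in control tumor 5 and -2.82 to -0.87 in the other control tumors, against 0.74 and 1.60 in control normal tissue. Its log2 difference was -3.18 (SE 0.63, adjusted p = 0.0041), and the probe lies at chr17:35461859-35461918 on mm9.

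**Figure D3:**
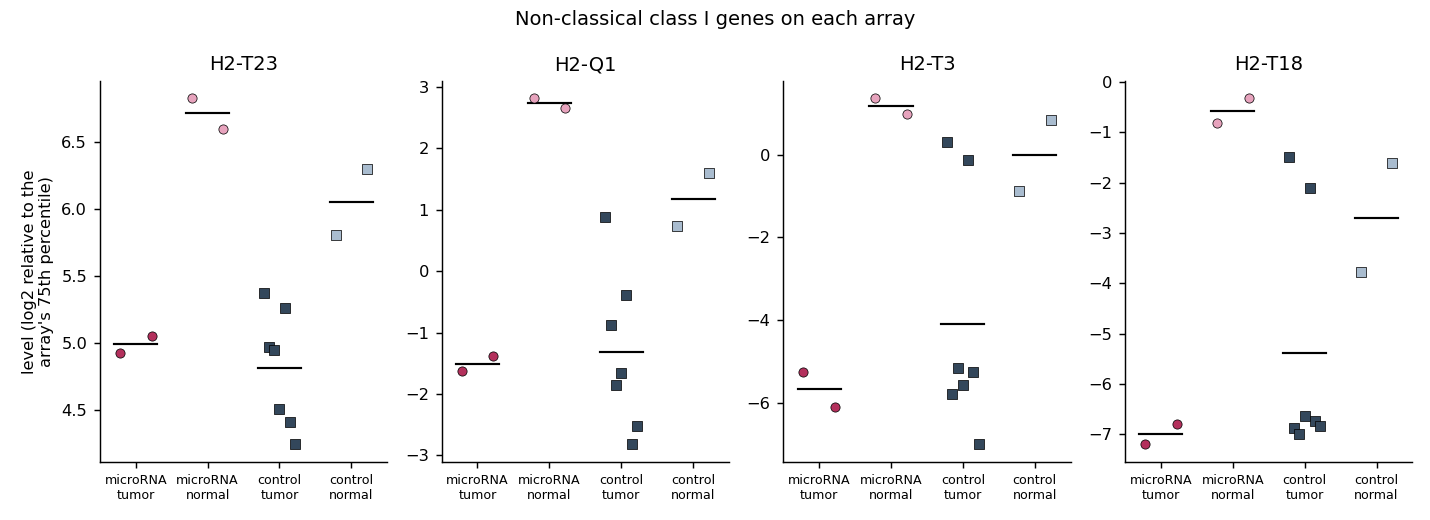
Level of H2-T23, H2-Q1, H2-T3 and H2-T18 (log2 relative to the array's 75th percentile) on each array, by group; points are arrays and lines are group means. Control tumors 1 and 5 hold H2-T3 at 0.31 and -0.14, near the normal arrays at -0.87 to 1.36, while the other 7 tumors lie at -7.00 to -5.16.

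Control tumors 1 and 5 were also the tumors with the highest mean levels over 9 epithelial markers, 6.36 and 6.03 against 4.70 to 5.69 in the other 7 tumors and 6.21 to 6.83 in normal tissue. They had the highest mean over 11 T and NK cell markers among tumors as well, -0.95 and -1.23 against -2.60 to -1.76 in the other tumors and -0.60 to 0.45 in normal tissue. Tumor 1 had more adipocyte marker signal than the other tumors (-1.22 against -4.37 to -3.59). The part of these markers in the levels of H2-T3, H2-T18 and H2-Q1 was not tested, and fewer cells of a type and less RNA per cell cannot be told apart in bulk tissue.

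The class II chains H2-Aa, H2-Ab1 and H2-Eb1 fell over both groups of mice combined, while within the groups only H2-Aa passed, in control mice. H2-Aa, the alpha chain of I-A, had 1.48 and 0.37 in microRNA tumors against 3.62 and 1.87 in microRNA normal tissue. In control mice it had 0.13, 1.04 and 1.47 in tumors against 2.86 and 2.51 in normal tissue. All tumors lay below all normal arrays, and the log2 difference was -1.87 (SE 0.38, adjusted p = 0.0048). H2-Ab1, the beta chain of I-A, and H2-Eb1, the beta chain of I-E, fell by 1.13 (adjusted p = 0.0079) and 1.16 (adjusted p = 0.0077), with no overlap either.

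H2-Ab1 was read by 2 probes that overlap by 51 bases and differ at 1 of them, shown here over 30 bases with the differing base in capitals (T21C, counted from the first base shown).
H2-Ab1 probe used, probe at chr17:34406296-34406355 on mm9: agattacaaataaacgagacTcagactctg
H2-Ab1 second probe, probe at chr17:34406305-34406363 on mm9: agattacaaataaacgagacCcagactctg
Without adjustment for treatment, the first gave -1.15 and the second -1.19, so both probes gave a similar difference.

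The partners of the class II chains moved with them. H2-DMa and H2-DMb1, the chains of the peptide exchange factor H2-DM, fell by 1.45 (SE 0.27, adjusted p = 0.0033) and 1.39 (SE 0.29, adjusted p = 0.0054). H2-DMb1 had 1.43 and 1.54 in microRNA tumors against 3.79 and 3.05 in microRNA normal tissue, and 0.60, 1.31 and 1.98 in control tumors against 2.44 and 2.21 in control normal tissue. H2-DMa had -1.13 and -1.11 in microRNA tumors against 1.27 and 0.64 in microRNA normal tissue, and -1.19, -1.02 and -0.16 in control tumors against 0.26 and 0.34 in control normal tissue. Neither chain overlapped between tumors and normal tissue.

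Cd74, the invariant chain, had 3.61 and 3.79 in microRNA tumors against 5.66 and 4.92 in microRNA normal tissue, and 3.39, 3.65 and 4.81 in control tumors against 4.74 and 4.64 in control normal tissue. Control tumor 5, the highest, lay above both control normal arrays, and the log2 difference over both groups was -1.14 (SE 0.29, adjusted p = 0.013). Over H2-Aa, H2-Ab1, H2-Eb1, H2-DMa, H2-DMb1 and Cd74, the differences ran from -2.07 to -1.35 in microRNA mice and from -1.90 to -0.85 in control mice.

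H2-Oa, H2-Ob, H2-DMb2 and H2-Eb2 behaved otherwise. H2-Oa and H2-Ob are the chains of H2-O, an inhibitor of H2-DM found mainly in B cells. H2-Oa had -2.41 and -1.72 in microRNA tumors against -1.34 and -1.64 in microRNA normal tissue, and -4.06, -2.59 and -0.71 in control tumors against 0.96 and 0.06 in control normal tissue. H2-Ob had -4.07 and -2.32 in microRNA tumors against -2.34 and -1.94 in microRNA normal tissue, and -4.52, -4.07 and -1.56 in control tumors against 0.00 and -0.92 in control normal tissue. Both control normal arrays were higher than all other arrays for both genes, and control tumor 2 came next.

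H2-DMb2 and the second I-E beta chain gene H2-Eb2 had the same order. H2-DMb2 had -4.81 and -4.30 in microRNA tumors against -3.82 and -4.62 in microRNA normal tissue, and -6.80, -6.09 and -3.12 in control tumors against -1.69 and -2.50 in control normal tissue. H2-Eb2 had -4.46 and -3.44 in microRNA tumors against -3.50 and -5.97 in microRNA normal tissue, and -5.25, -4.77 and -2.53 in control tumors against -0.53 and -1.69 in control normal tissue. H2-DMb2 was well above background on 4 arrays and H2-Eb2 on 7, so most of their levels are near the limit of detection.

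The 4 genes are grouped here by their order on these arrays, so their counts are not separate evidence for that pattern. All 4 fell in control mice, with log2 differences of -3.50 to -3.20, against 10.9% of all genes lower there (H2-Oa adjusted p = 0.016, H2-Ob 0.012, H2-DMb2 0.013 and H2-Eb2 0.013). In microRNA mice their differences were -0.57, -1.06, -0.33 and 0.79, with 0 of 4 called, against 1.76% of all genes lower there. The difference between the tumor effects was 2.62, 2.18, 3.17 and 4.24 for the 4 genes and did not pass (smallest adjusted p = 0.39). With the slide as a block the differences in control mice were -3.24, -3.95, -3.37 and -3.32, of which only that of H2-Ob passed (adjusted p = 0.023, against 0.061, 0.061 and 0.06 for the other 3), and within slide 2, where control mice have 1 tumor array, the values were -3.09, -3.70, -3.37 and -3.89. Without control normal 2 and control tumor 3, 0 of 4 passed in control mice (-3.66, -3.62, -3.92 and -3.96).

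**Figure D4:**
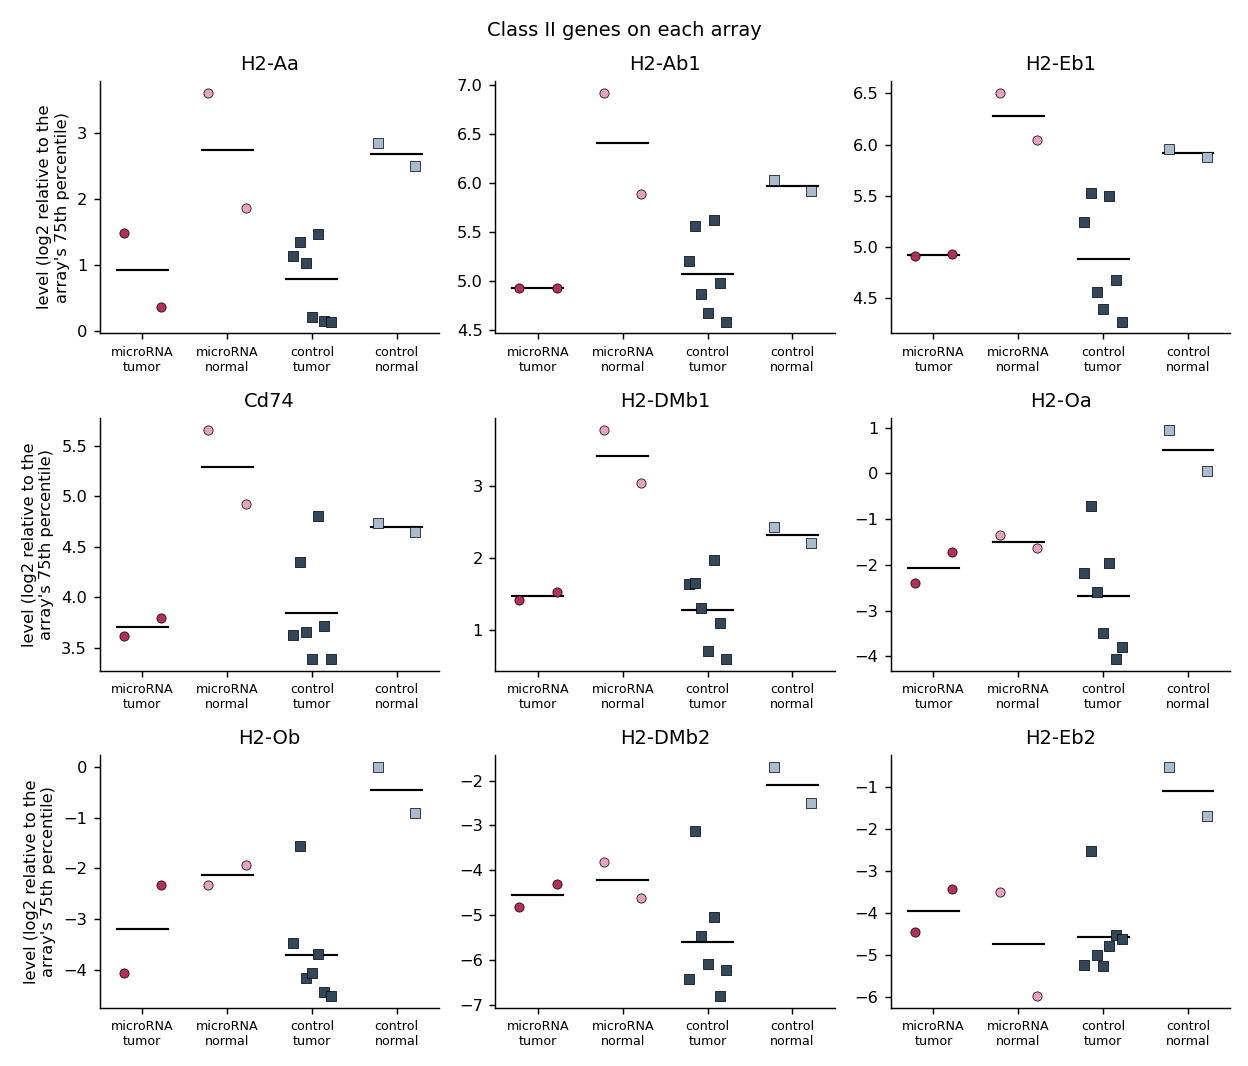
Level of 9 class II genes (log2 relative to the array's 75th percentile) on each array, by group; points are arrays and lines are group means. H2-Aa to H2-DMb1 have lower group means in tumors than in normal tissue of the same mice, while H2-Oa, H2-Ob, H2-DMb2 and H2-Eb2 are highest in the 2 control normal arrays, followed by control tumor 2 (-0.71, -1.56, -3.12 and -2.53).

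Markers of B cells, like these 4 genes, were highest on the control normal arrays, with control tumor 2 next. Their mean level over 9 of 10 listed genes was -2.73 and -1.21 in microRNA tumors against -1.68 and -1.77 in microRNA normal tissue. It was -0.57 in control tumor 2 and -4.05 to -2.44 in the other control tumors, against 0.62 and -0.35 in control normal tissue. In control mice 7 of the 9 fell (median -3.82), against 10.9% of all genes. In microRNA mice 0 of the 9 fell (median -0.14), against 1.76% of all genes. Over both groups 3 of the 9 fell, and 0 of the 9 passed when the tumor effect in microRNA mice was compared with that in control mice. The counts of 7 and 0 therefore do not show that the groups of mice differed. Cd79b, a chain of the B cell receptor complex, fell by 2.46 over both groups (adjusted p = 0.022) and the B cell transcription factor Spib by 3.06 (adjusted p = 0.016), and Blk was not above background on enough arrays to be tested. The means of the skin markers (2.06 and 0.37) and smooth muscle markers (6.53 and 6.12) were also highest on the control normal arrays, though control tumor 2 was not next. The part of B cells or of these other cells in the 4 class II genes was not tested.

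Markers of the other cells that carry class II are given for comparison, beside 11.7% of all genes higher and 19.7% lower over both groups. Of 10 macrophage and monocyte markers tested 2 rose and 0 fell over both groups of mice (median 0.59), led by Cd14, a co-receptor for endotoxin (1.61, adjusted p = 0.00052), and Cx3cr1, the fractalkine receptor (0.59, adjusted p = 0.025). The mean level of this list ran from 0.96 to 1.93 in tumors against 0.45 to 0.92 in normal tissue. Of 9 dendritic cell markers 1 rose and 0 fell (median -0.57), with the integrin Itgax at 0.69 (adjusted p = 0.015) and the cross-presenting cell receptor Clec9a at -1.19 (adjusted p = 0.053). The list mean ran from -1.21 to -0.31 in tumors against -0.38 to -0.07 in normal tissue. For both lists the share that rose was near that of all genes. Cd163 and Xcr1 of these lists did not pass the filter on low signal.

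T and NK cell markers, by contrast, fell in 10 of 11 tested genes (median -1.65), including Cd3d and Cd3g of the T cell receptor complex (-1.90 and -2.18, both adjusted p = 0.0033) and the CD8 beta chain Cd8b1 (-2.08, adjusted p = 0.0026). The list mean was -2.60 to -0.95 in tumors against -0.60 to 0.45 in normal tissue, and Ncr1 and Trbc1 did not pass the filter. Smooth muscle markers fell in 6 of 6 genes (median -2.68) and adipocyte markers in 4 of 4 (median -5.49), and epithelial markers in 5 of 9 (median -0.82). Neutrophil markers rose in 4 of 5 (median 4.16) and endothelial markers were called in 0 of 4 (median -0.14). Beside these counts, 19.7% of all genes were lower and 11.7% higher in tumors. The part of any of these cell types in the class I and class II differences was not tested.

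Ciita, the transactivator of class II genes, did not pass (log2 -0.14, SE 0.57, adjusted p = 0.87). Its levels were -4.21 and -3.03 in microRNA tumors against -2.83 and -2.21 in microRNA normal tissue, and -3.82, -2.90 and -0.33 in control tumors against -2.98 and -3.49 in control normal tissue. Control tumor 4, the highest, stood above all other arrays. The level rests on 1 probe, which is 65% A and holds 8 copies of AAAAC. Whether the level follows Ciita was not tested.

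Genes around both pathways were read from lists of their own, whose shares stand beside 19.7% of all genes lower and 11.7% higher in tumors. Of 12 further genes of peptide loading and trimming, 2 fell (median -0.15), a share below that of all genes, and these were Psme2, a subunit of the proteasome activator PA28 (-0.93, adjusted p = 0.0092), and the aminopeptidase Lnpep (-0.57, adjusted p = 0.045). Erap1, which trims peptides in the endoplasmic reticulum, differed by -0.54 (adjusted p = 0.053) and Psme1, the other PA28 subunit, by -0.38 (adjusted p = 0.16). Of 10 genes of class II processing 4 fell (median -0.46), namely the lysosomal genes Cd63 (-0.71), Lamp1 (-0.59), cathepsin S, Ctss (-0.79), which trims the invariant chain, and the thiol reductase Ifi30 (-0.79).

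Among 10 transcription factors that act on MHC promoters, 2 fell and 1 rose (median 0.24), shares near those of all genes. Rfxank, a subunit of the factor that binds the X box, fell by 1.05 (adjusted p = 0.0073) and Irf1, which binds interferon response elements, fell by 0.82 (adjusted p = 0.027). Creb1 rose by 0.73 (adjusted p = 0.014), and Rfx5, another subunit of the X box factor, differed by 0.88 (adjusted p = 0.065). Of 19 genes of interferon gamma signalling 2 fell (median -0.28), a share below that of all genes: Ido1, which degrades tryptophan (-2.58, adjusted p = 0.013), and the receptor chain Ifngr1 (-0.77, adjusted p = 0.02). Ifng itself differed by -1.32 (adjusted p = 0.068). Of 8 costimulation and checkpoint genes 3 rose (median 0.23), which were the adhesion molecule Icam1 (2.04), the B7 family member Cd276 (1.98) and Cd40 (0.64).

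The next question was whether the tumor difference was alike in both groups of mice. In microRNA mice, 13 of 44 genes were lower and 0 higher (median -1.39), against 3.18% of all genes called (1.76% lower, 1.42% higher): 7 class I heavy chains, 4 pathway genes (Tap1, Tapbp, Psmb8 and Psmb9) and the class II genes H2-DMa and H2-DMb1. In control mice, 16 were lower and Cd1d1 was higher (median -0.87), against 19.1% of all genes called (10.9% lower, 8.18% higher). The 16 were 9 class I heavy chains, 1 pathway gene (Psmb9) and 6 class II genes (H2-Aa, H2-DMa, H2-Oa, H2-Ob, H2-DMb2 and H2-Eb2). The medians were -1.28 and -0.87 for class I heavy chains, -1.68 and -0.67 for the pathway, and -1.35 and -1.05 for class II, in microRNA mice and control mice in that order.

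All 8 pathway genes had a more negative tumor difference in microRNA mice, with a median difference between the tumor effects of -0.87. Among all 25395 genes, 13346 had a difference between the tumor effects below 0 (median -0.04). None of the 44 genes passed the test of that difference with limma, against 0.28% of all genes (0.102% higher, 0.177% lower), and 6 had an unadjusted p under 0.05, as had 6.19% of all genes. The counts within each group of mice rest on 2 normal arrays and moved with single arrays: in microRNA mice they were 0 without microRNA normal 1 or microRNA tumor 1, and 1 without the other array of either group. They were also 7 without either control normal array, 8 without control tumor 2 and 7 without control tumor 4. In control mice they were 0 without either control normal array, 25 without control tumor 5, and 10 without control tumor 4. With the slide as a block the count was 3. The count was 7 on the second slide alone, whose 1 control tumor array is assumed to vary like the other groups.

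**Figure D5:**
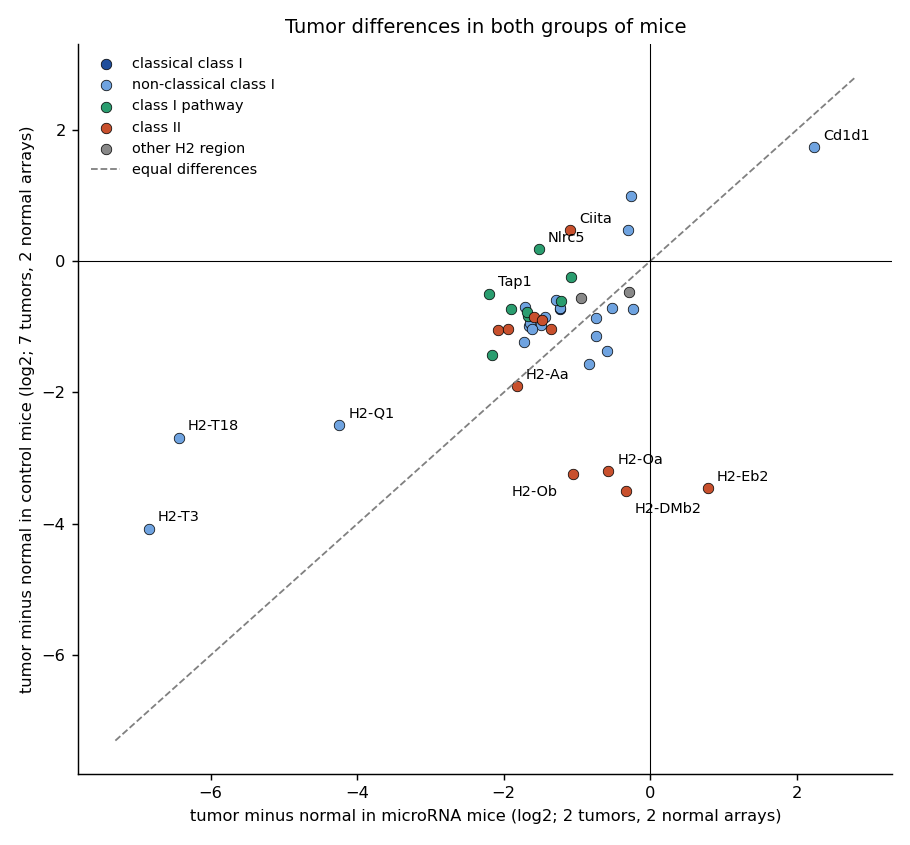
Log2 difference of tumor minus normal tissue in microRNA mice (horizontal axis) and in control mice (vertical axis) for the 44 genes, coloured by class; the dashed line marks equal differences. H2-Oa, H2-Ob, H2-DMb2 and H2-Eb2 lie far below the line, at -3.50 to -3.20 in control mice and -1.06 to 0.79 in microRNA mice, and all 8 class I pathway genes lie above it.

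The effect of the microRNA injections was read within each tissue. In tumors 0 of the 44 genes passed with limma and 0 had an unadjusted p under 0.05 (median log2 0.11), against 0.00394% of all genes called, that is 1 gene. H2-K1 had 5.79 and 6.24 in microRNA tumors against 5.45 to 6.25 in control tumors, and H2-Aa 1.48 and 0.37 against 0.13 to 1.47. For H2-K1 and H2-Aa the microRNA tumors thus lay within or close to the range of the 7 control tumors. Both microRNA tumors lay above all 7 for H2-T9 (-0.23 and -0.26 against a highest of -0.42) and H2-T10 (-0.55 and -0.49 against -0.69). The same held for H2-M3 (-0.24 and -0.31 against -0.36). The share of all genes with this order was not computed, so these are listed as single values. H2-T9 and H2-T10 are close copies and cannot be taken as separate measurements. No member had both microRNA tumors below all 7.

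In normal tissue 0 of 44 passed, against 0.532% of all genes (0.284% higher, 0.248% lower), and 10 had an unadjusted p under 0.05, 7 of them higher in microRNA mice, as had 5.50% of all genes. All 8 pathway genes had a microRNA minus control value above 0 (median 0.91), as had 18 of 23 class I heavy chains (median 0.67) and 7 of 11 class II genes (median 0.36), none of them called. Among all 25395 genes, 13719 had a value above 0 (median 0.04). Psmb8 had 3.51 and 3.40 in microRNA normal tissue against 1.96 and 2.39 in control normal tissue (1.28, adjusted p = 0.21), and H2-Eb2 had -3.50 and -5.97 against -0.53 and -1.69 (-3.63, adjusted p = 0.2). A p that misses the threshold does not show that the groups are alike, and the skin and B cell markers above were higher on the control normal arrays. The mean of the T and NK cell markers went the other way, at 0.45 and 0.07 in microRNA normal tissue against -0.60 and -0.39 in control normal tissue. The part of these cell types was not tested.

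Set against each other, both classes were lower in tumors. The class II median minus the class I heavy chain median was -0.37, and -0.53 to -0.24 with single arrays left out, with no test. Within class II the median was -2.21 for H2-Oa, H2-Ob, H2-DMb2 and H2-Eb2. For H2-Aa, H2-Ab1, H2-Eb1, H2-DMa, H2-DMb1 and Cd74 it was -1.27, closer to the -1.08 of class I heavy chains. The size of the class difference thus depends on which class II genes are counted. It was -0.19 with the slide as a block, -0.59 after quantile normalization, -0.58 within slide 2 and 0.19 within slide 1. The mean level of the 11 class II genes minus that of the 23 class I heavy chains on the same array does not depend on scaling between arrays, and only its change across arrays carries information. It was -1.13 and -1.05 in microRNA tumors against -1.20 and -1.85 in microRNA normal tissue, and -1.90, -1.33 and -0.35 (lowest, median and highest) in control tumors against 0.00 and -0.87 in control normal tissue. Tumors and normal tissue overlapped, at -1.23 ± 0.41 (SD, n = 9) in tumors and -0.98 ± 0.77 (SD, n = 4) in normal tissue. The class II mean includes H2-Oa, H2-Ob, H2-DMb2 and H2-Eb2, which were highest on the control normal arrays.

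The genes named for the region that are not antigen presenting molecules were H2-Ke6, a steroid and fatty acid dehydrogenase, and H2-Ke2, which RefSeq names Pfdn6, a subunit of the chaperone prefoldin. H2-Ke6 fell by 0.71 (SE 0.18, adjusted p = 0.011), or stood at 0.28 without scaling, and H2-Ke2 differed by -0.40 (adjusted p = 0.087).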

How the data were processed

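Cy3-labelled RNA (35 ng of total RNA, per the labels) from 13 samples was hybridized to Agilent mouse 1-colour arrays. Spots were quantified by the authors in Feature Extraction 10.7.3.1, per the file headers, as background-subtracted linear intensity with no scaling from array to array. A series-wide table that they also deposited holds equal intensity values (largest relative difference 0). Mean raw and local background intensity, also deposited, served 1 alternative.

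Here, the 3671 control spots were left out, outlier spots were set to missing, and log2 intensity as deposited was reduced by the log2 of each array's 75th percentile. Of 55681 probes, 35191 were well above background on at least 2 arrays. The brightest probe represented each gene (25395 genes). No member value was missing or saturated. With R 4.3.3 (files read by data.table, version 1.17.8), differences were tested by the lmFit and eBayes functions of limma 3.58.1 on all 13 arrays, with Benjamini-Hochberg adjustment over all genes and a threshold of 0.05: an additive model of tissue and treatment, and a model of 4 group means. The procedure was tested on simulated data. "At least" folds take, per array of the dim group, the higher of the probe's own signal and the lowest signal well above background. Python 3.11.15 with matplotlib 3.10.9 made the figures. The number of arrays limits the precision.

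The members and the lists of other genes were chosen with earlier results of these data known. Every member that passed is named. Of each other list, up to 4 genes with the smallest p in the additive model are named, and Blk, Cd163, Xcr1, Ncr1 and Trbc1 were named after their values were seen. The alternatives were normexp correction (offset 50), quantile and median scaling, no scaling, no filter or a filter by group, the mean of a gene's probes, trend and robust estimation, an added 2-fold minimum, the slide as a block or alone, the file-name number as a random block, the replicate number as a block, only the compared groups, and leaving out arrays. Probe positions are those in the files (mm9). Promoters are from RefSeq (GRCm38.p6), matched by symbol or accession. A genome sequence was not used here, so exon or UTR positions of probes are not given. Some items are not reported here.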

Additional observations from a re-analysis of the deposited data

Results flagged for a closer look

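Among the 7 control tumors, 5 of the 44 genes had 1 array apart from the others by Dixon's test, which chance alone gives in about 1 in 20 groups of normally distributed values. The share over all genes was not computed, so the 5 are listed as single values and not as a trait of these genes. Control tumor 2 was high for H2-Ob (-1.56, next highest -3.46) and for H2-Eb2 (-2.53, next -4.52), and it also had the highest mean of the B cell markers among tumors (-0.57). Control tumor 4 was high for Ciita (-0.33, next -2.72), whose 1 probe was not tested for whether it follows the gene. Control tumor 3, an array with Xist signal and the only control tumor on slide 2, was low for H2-Gs10 (5.11, next 5.91) and for H2-M11 (-3.42, next -1.86). The other arrays of slide 2 had -3.49 (microRNA tumor 1), -2.17 (microRNA normal 1), -3.23 and -2.32 (control normal tissue) for H2-M11.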

How the results depend on the processing

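Counts below are genes lower in tumors, against 19 class I heavy chains, 7 pathway genes and 9 class II genes over both groups of mice, 13 genes in microRNA mice and 16 in control mice. Quantile normalization gave 4 pathway genes, 5 class II genes and 5 genes in microRNA mice, and median scaling 5 in microRNA mice. No scaling gave 3, 0 and 1 by class, 1 in microRNA mice and 4 in control mice. There the additive differences turned to 0.46 for H2-M3, 0.42 for Tapbp, 0.13 for H2-Q8, 0.17 for H2-T10, 0.15 for B2m, 0.012 for H2-T9, 0.36 for H2-T24, 0.078 for H2-Q7, 0.067 for H2-D1 and 0.28 for H2-Ke6. In control mice they turned to 0.0053 for H2-DMa, 0.33 for H2-M3, 0.19 for H2-K1, 0.18 for H2-T10, 0.016 for H2-Q6 and 0.077 for H2-K2. The all-gene median of the additive differences was 0.89 there. An added 2-fold minimum gave 12 class I heavy chains. Slide as a block gave 3 in control mice. Slide 1 alone gave 0, 0 and 0 by class and 0 in microRNA mice, 0.19 for the class II minus class I median (-0.37 in the text) and 0.32 for H2-DMb2. Slide 2 alone gave 12 class I heavy chains, 3 pathway genes, 0 in microRNA mice and 7 in control mice, where a group can hold 1 array that is assumed to vary like the others. The class difference was -0.19 with slide as a block, -0.59 after quantile normalization and -0.58 within slide 2. The file-name number as a random block gave 25 in microRNA mice, and a fit to the compared groups 7. Without both arrays with Xist signal, 10 class I heavy chains, 3 pathway genes, 6 in microRNA mice and 0 in control mice were lower. Titles number replicates within groups without saying that numbers pair samples. Replicate differences correlated at 0.42 between microRNA tumors and normal tissue and at -0.19 between control tumors and normal tissue. With the replicate block, 5, 2 and 3 genes by class and 0 in control mice were lower. Except where stated, the cause was not tested. Single arrays left out gave 13 to 20 class I heavy chains, 4 to 7 pathway genes, 6 to 10 class II genes, a class difference of -0.53 to -0.24, 0 to 18 genes in microRNA mice, 0 to 25 in control mice, and 0 to 0 for the microRNA effect in either tissue and for its comparison between tumors and normal tissue. Normexp correction, no filter, a filter by group, and trend and robust estimation kept all 37 calls over both groups. H2-DMb2, H2-T3, H2-T18 and H2-M9 were near background on most arrays, which limits their values.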
